A study of Mus musculus with 12 samples.

Results

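Of the 22556 genes counted in these libraries, 10 genes of the integrated stress response are described here. They were taken by name: the regulators Atf4, Atf5, Ddit3 and Trib3, the amino acid supply genes Asns, Psat1, Phgdh and Slc7a11, and the glutathione and nutrient genes Chac1 and Sesn2. The question was whether doxycycline (Dox), which switches on Xist in these cells and is also known to inhibit mitochondrial translation, went with a change of these genes. Chromatin-associated RNA was sequenced from iXist-ChrX cells, female mouse embryonic stem cells (mESCs) from a cross of 129S and Cast, in which a TetOn promoter drives Xist on the 129S allele. All 12 libraries carry this promoter. Cells with Dox had received 1.0 to 1.5 µg/mL for 24 h, and cells without it (NoDox) were taken at 0 h. WT cells, with no deletion in Xist, gave 1 library in each state. XistDelA cells, which lack the A-repeat of Xist, are 3 clones named C1, 2C2 and C11, each with 1 library in each state. The names deposited with the libraries give C11 another deletion tag than C1 and 2C2. The study describes a precise deletion of the A-repeat beside a larger one. Whether the 3 clones share one deletion is therefore not known here, although the labels group them. XistDelm6A/T1_11C cells, called 11C below, lack the m6A region near the 5′ end of Xist and are a single line with libraries numbered 1 and 2 in each state. The 5 lines thus give 6 pairs of libraries. Dox and the induction of Xist coincide in every pair and cannot be told apart. The methods of the study call its replicates biological, but neither they nor the labels say whether the 11C numbers stand for separate cultures, so the p-values measure only the spread between these libraries.

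Totals over all genes ran from 18893447 to 36007145 counts per library, with a median of 26552191. Levels are scaled to these totals (RPM), and their 95% intervals (Wilson) cover counting error only. Xist, the check of the Dox labels, was at 85.6 to 297 RPM in the 6 NoDox libraries and at 1267 to 5514 RPM in the 6 Dox libraries. In the edgeR test over all lines Xist rose by 4.19 on the log2 scale (adjusted p = 6.14e-04, higher in 6 of 6 pairs), and its adjusted p ranged from 5.66e-24 to 0.00841 over the alternatives. Of 10 embryonic stem cell markers, 9 were present in every library and summed to 1639 to 2452 RPM, with Zfp42 the most abundant. Sox2 was at 0 in all 12 libraries. It lies within Sox2ot on the same strand, where a read pair that overlaps both genes was not counted. The cells were grown on feeder fibroblasts, which per the methods of the study were removed by pre-plating before the RNA was extracted. The 11 fibroblast markers summed to 34.1 to 77.0 RPM, with Fbn1 the most abundant and Lum at 0 in 10 libraries. This sum was 34.1 to 49.5 RPM in the 4 11C libraries and 63.8 to 77.0 RPM in the other libraries. In such bulk libraries, fewer cells of a type and less RNA per cell cannot be told apart.

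The integrated stress response starts when kinases phosphorylate the translation factor eIF2 after amino acid shortage, endoplasmic reticulum (ER) stress, heme shortage or mitochondrial trouble. Overall protein synthesis then slows while Atf4 mRNA is translated better, so that the first rise of ATF4 is one of protein, and ATF4 in turn activates genes for amino acid supply, redox balance and cell death. Chromatin-associated RNA is mostly nascent transcript, so these data bear on the transcription of Atf4 and of its targets and not on translation or protein.

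The 11C libraries numbered 1 and 2 stood apart from each other. Of 16254 genes tested, 1558 (9.59%) differed by a log2 of 1 or more between the 11C libraries 1 and 2 without Dox, and 2529 (15.6%) did with Dox. Between any pair of XistDelA clones in the same state the number was 558 to 1055 (3.43% to 6.49%). Among the 10 stress response genes, 4 differed that much between the 11C libraries without Dox and 6 with Dox, against 0 in each of the comparisons of clones. Without Dox these were Atf5, Trib3, Slc7a11 and Chac1. With Dox they were Trib3, Asns, Psat1, Phgdh, Slc7a11 and Chac1. Chac1 was at 7.24 RPM (6.19 to 8.47) in 11C library 1 without Dox and at 2.43 RPM (1.82 to 3.25) in library 2. Slc7a11 was at 8.58 and 2.17 RPM in the same libraries, and Trib3 at 6.17 and 2.06 RPM. Library 1 was thus the higher one for these 3 genes, and it was so in both states. Asns differed the other way, with 295.6 RPM in library 1 and 417 RPM in library 2 without Dox, and 273 and 577 RPM with Dox. The sum of the stem cell markers was 2012 and 1705 RPM in 11C libraries 1 and 2 without Dox and 2452 and 1639 RPM with Dox. What part the marker levels have in these differences was not tested. The genes are therefore given below with the 11C line and without it.

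**Figure D1:**
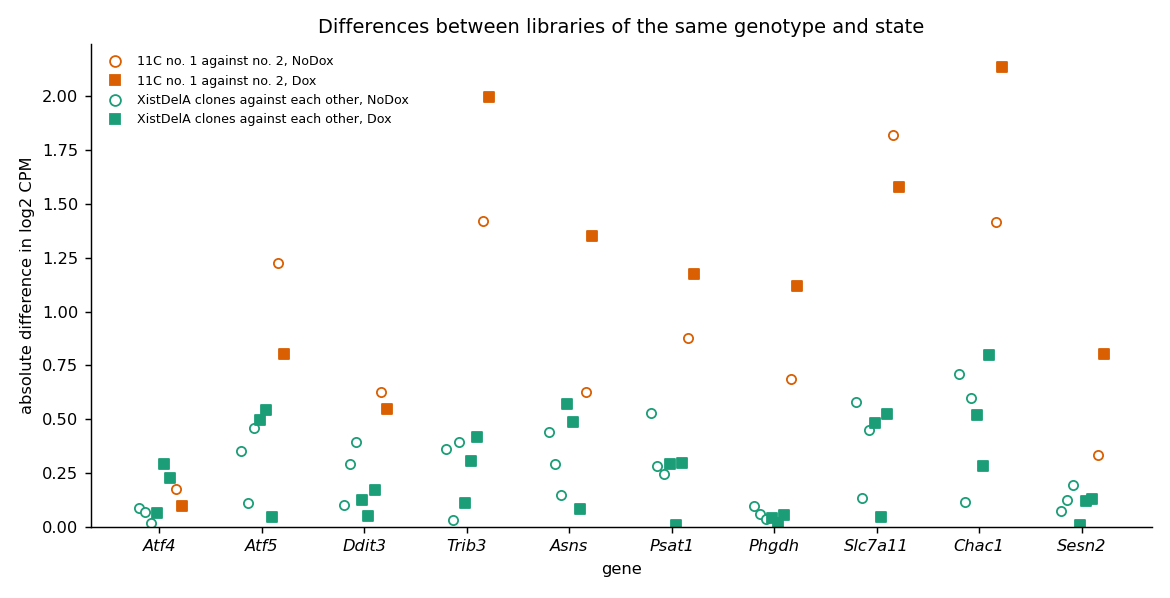
Absolute difference in log2 CPM of each gene between libraries of the same genotype and state, with 11C library 1 against 2 in orange and XistDelA clones against each other in green (open circles NoDox, filled squares Dox). Chac1 reached 2.14 and Trib3 2.00 (rounded) between the 11C libraries with Dox, while the clones differed by at most 0.80 in any of the 10 genes.

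All 10 genes passed the filter on low counts. They lie on autosomes, on chromosomes 15 (Atf4), 7 (Atf5), 10 (Ddit3), 2 (Trib3 and Chac1), 6 (Asns), 19 (Psat1), 3 (Phgdh and Slc7a11) and 4 (Sesn2), and none overlaps another gene on its own strand. On the other strand, Atf5 overlaps Nup62 and Nup62-il4i1, and Ddit3 overlaps Mars, and the counting used strand. The files count read pairs over the whole gene span, introns included, so levels of different genes are compared as RPM per kb of that span. The median over the 12 libraries was highest for Atf4, at 24.8 RPM per kb, above 99.0% of the genes tested. Asns, the asparagine synthetase gene, followed with 14.6 RPM per kb and Psat1 with 5.16 RPM per kb. Sesn2 was at 2.03, Phgdh at 1.50, Ddit3 at 0.843, Chac1 at 0.629, Trib3 at 0.476 and Atf5 at 0.420 RPM per kb. The lowest was Slc7a11, at 0.0421 RPM per kb, above 15.3% of the genes tested, over a span of 78.7 kb. Neighbours in this order whose ranges over the libraries did not overlap were Asns and Psat1, Psat1 and Sesn2, and Atf5 and Slc7a11. The ranges of all other neighbours overlapped. The lowest count of any of the genes in a library was 18, for Atf5, and the highest was 12155, for Asns.

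**Figure D2:**
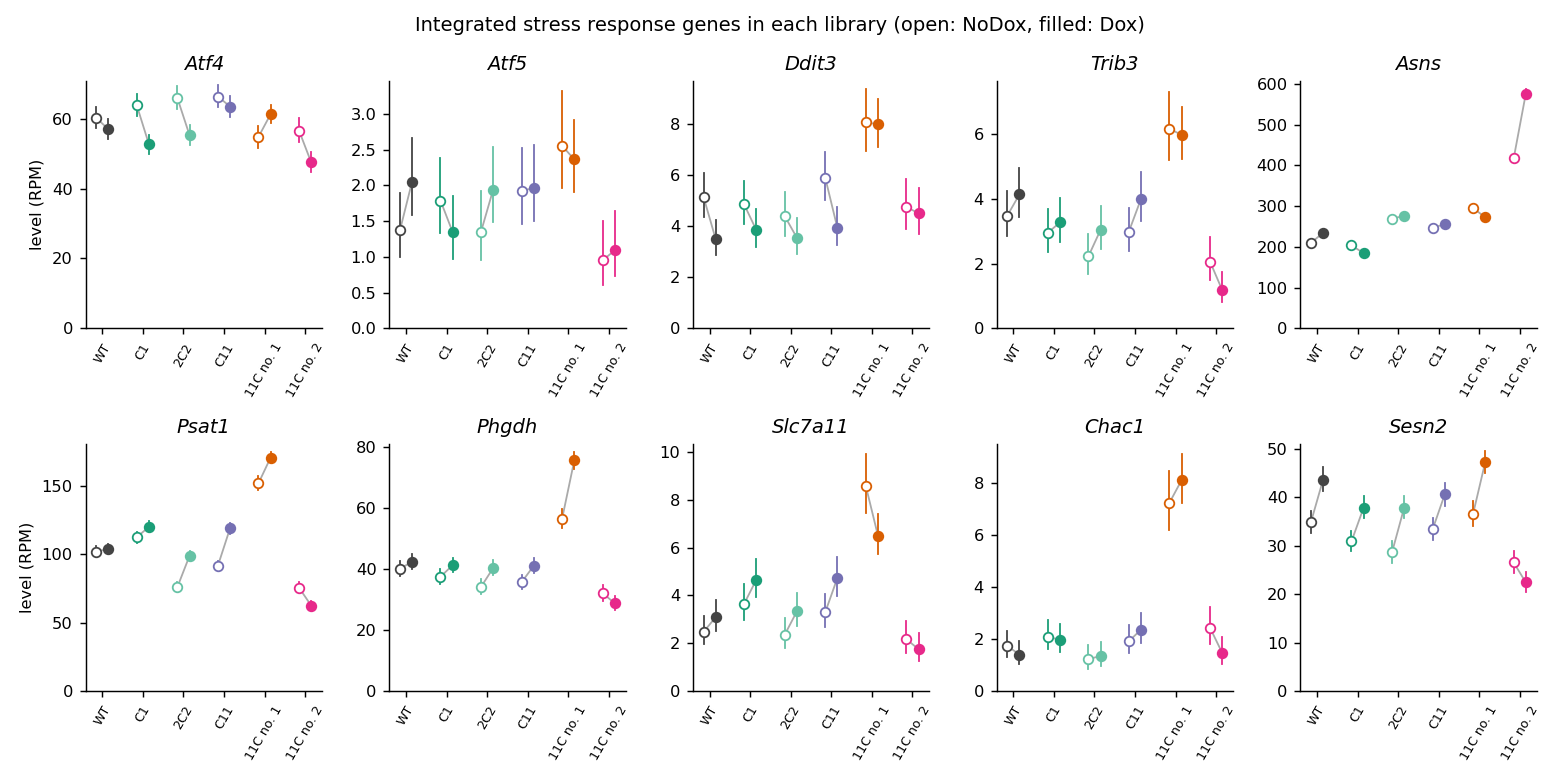
Level of each gene in RPM (y axis, from 0) in each library, with open circles for NoDox, filled circles for Dox, grey lines joining a pair and bars for 95% Wilson intervals. Chac1 was at 7.24 and 8.11 RPM in the 11C libraries numbered 1 and at 1.22 to 2.43 RPM in all other libraries.

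The promoters of the genes that differed most between the 11C libraries, Chac1, Trib3 and Slc7a11, are shown with that of Asns, since these 4 hold a match to the core of the C/EBP-ATF response element (CARE), the letters to which ATF4 is known to bind with a partner. The sequences are from RefSeq (GRCm38.p6) and run from 250 bases before to 50 bases after the start site, 5′ to 3′ on the strand of the gene. All 10 genes were matched by symbol, with 12 such windows. The windows of the other genes held no match to the CARE core. Among these are Atf5, Psat1 and Phgdh, which also differed by a log2 of 1 or more between the 11C libraries in 1 state. Whether a match goes with these differences was not tested. The core TGATGNAA was searched on both strands, and matches are in capitals. The windows are chr2:119350992-119351291 on the plus strand for Chac1, and chr2:152344011-152344310, chr3:50443564-50443863 and chr6:7693160-7693459 on the minus strand for Trib3, Slc7a11 and Asns.
Chac1: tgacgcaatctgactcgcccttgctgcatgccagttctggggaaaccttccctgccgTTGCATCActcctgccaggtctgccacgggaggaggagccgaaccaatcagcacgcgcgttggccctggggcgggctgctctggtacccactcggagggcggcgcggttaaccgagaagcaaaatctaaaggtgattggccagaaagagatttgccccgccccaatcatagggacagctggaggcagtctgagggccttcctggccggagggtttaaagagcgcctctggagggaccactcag
Trib3: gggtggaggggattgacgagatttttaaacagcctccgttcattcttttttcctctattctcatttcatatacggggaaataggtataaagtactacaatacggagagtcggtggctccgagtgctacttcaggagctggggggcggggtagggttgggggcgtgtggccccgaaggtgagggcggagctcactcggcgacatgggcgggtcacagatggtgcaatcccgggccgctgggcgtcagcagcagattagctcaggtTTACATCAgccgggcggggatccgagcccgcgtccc
Slc7a11: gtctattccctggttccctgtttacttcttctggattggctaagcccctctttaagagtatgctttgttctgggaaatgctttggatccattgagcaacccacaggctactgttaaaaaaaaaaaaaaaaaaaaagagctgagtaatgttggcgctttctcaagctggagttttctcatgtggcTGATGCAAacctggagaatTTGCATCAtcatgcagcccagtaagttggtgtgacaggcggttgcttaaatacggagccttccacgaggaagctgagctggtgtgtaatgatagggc
Asns: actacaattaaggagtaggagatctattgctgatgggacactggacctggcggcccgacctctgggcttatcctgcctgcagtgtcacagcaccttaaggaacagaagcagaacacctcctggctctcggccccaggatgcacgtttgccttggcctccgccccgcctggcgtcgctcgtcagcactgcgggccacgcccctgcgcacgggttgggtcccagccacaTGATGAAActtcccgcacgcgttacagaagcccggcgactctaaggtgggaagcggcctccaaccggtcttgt
The first base of the match lies at -193 from the start site in Chac1, at 15 in Trib3, at -66 and -47 in Slc7a11, which has 2 matches, and at -23 in Asns. Over all 32851 promoter windows of this table, 3.97% held the core. The cyclic AMP response element TGACGTCA was in none of the windows of the 10 genes and in 1.79% of all windows. The core of the antioxidant response element, TGACNNNGC, was in those of Asns, Phgdh and Sesn2 and in 12.4% of all windows. No CARE match overlapped a match to another of these motifs. A match describes the letters only.

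With Dox, none of the 10 genes passed the edgeR quasi-likelihood test over all lines at an adjusted p under 0.05, while 150 of 16254 genes (0.923%) did, 61 higher and 89 lower. At an unadjusted p under 0.05, 0 of the 10 genes and 2356 of all genes (14.5%) passed. DESeq2 called 0 of the 10 genes and 618 of 13733 genes with an adjusted p. The median log2 change of the 10 genes was 0.11, against 0.01 over all genes tested, with 7 values above 0 and 3 below. The number of genes called depended on single pairs: it was 4 without WT, 7 without C1, 3 without 2C2 and 25 without C11, each with 0 of the 10 genes. It was 2959 of 16094 (18.4%) without 11C number 1, where 2 of the 10 genes were called, Ddit3 and Atf4. It was also 2959, of 16069 (18.4%), without 11C number 2, where 2 were called, Ddit3 and Sesn2. A fit of the 8 WT and XistDelA libraries, chosen after the data were seen, called 4031 of 15665 genes (25.7%) and 5 of the 10 genes: Ddit3 and Atf4 lower, and Psat1, Slc7a11 and Sesn2 higher. A block of the 6 pairs, which also pairs the 11C libraries by number, called 2587 of 16254 genes (15.9%). It called 2 of the 10 genes, Ddit3 lower and Sesn2 higher. Of the 14 alternatives run for the test over all lines, 4 called at least 1 of the genes and 10 called none. In the alternatives that called any, the share of all genes called was also far above 0.923%, and the 5 genes of the 8-library fit did not move in a common direction.

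**Figure D3:**
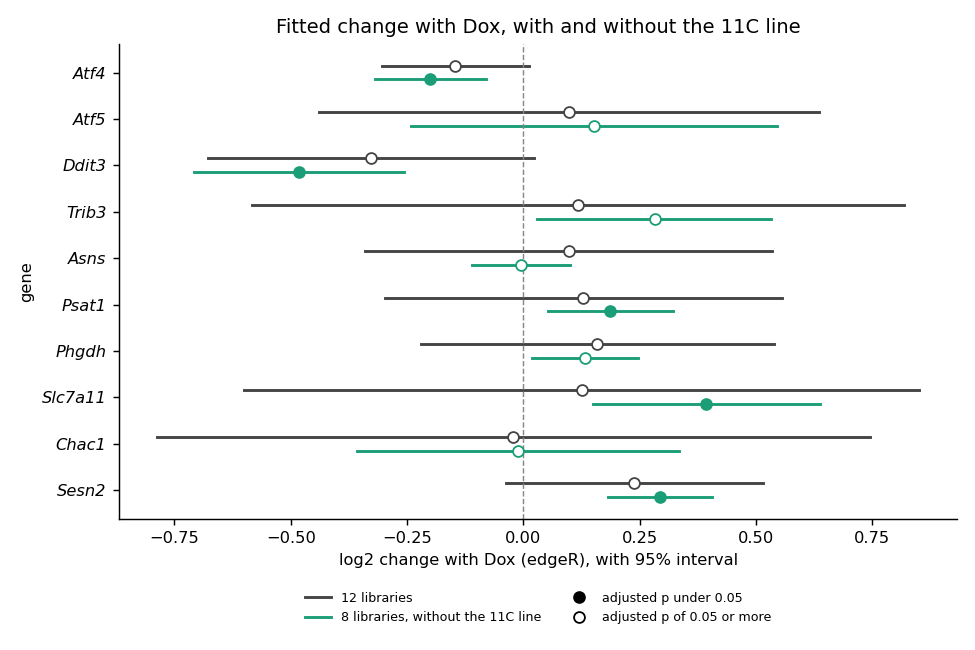
Fitted log2 change with Dox (x axis) and its 95% interval for each gene, from the 12 libraries in grey and from the 8 libraries without the 11C line in green, with filled points for an adjusted p under 0.05. Chac1 had the widest interval in the 12 libraries, from -0.79 to 0.74, and the intervals of Ddit3, Atf4, Psat1, Slc7a11 and Sesn2 lay to one side of 0 in the 8 libraries, as did those of Trib3 and Phgdh, which did not pass.

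Taken pair by pair, the 10 genes differed in direction. All counts of pairs use log2 CPM scaled by TMM, and where a difference is small its sign can differ from that of the RPM values, which are scaled to library totals. In the C11 pair 8 were higher with Dox, with a median difference in log2 CPM of 0.23, and in the 2C2 pair 7 were, with a median of 0.24 (0.245 before rounding). In the C1 pair 5 were higher and 5 lower, with a median of -0.02. In the WT pair 6 were higher, with a median of 0.09 (0.085 before rounding). In the 11C pair numbered 1, 5 were higher and 5 lower, with a median of 0.01, and in the pair numbered 2, 3 were higher and 7 lower, with a median of -0.17. Over all genes tested the medians of the 6 pairs lay between -0.01 and 0.02. Pairing of the 11C libraries by number is a choice made here, since the labels do not say what the numbers share. Deviations from the group means did correlate between 11C libraries of the same number (r = 0.691).

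**Figure D4:**
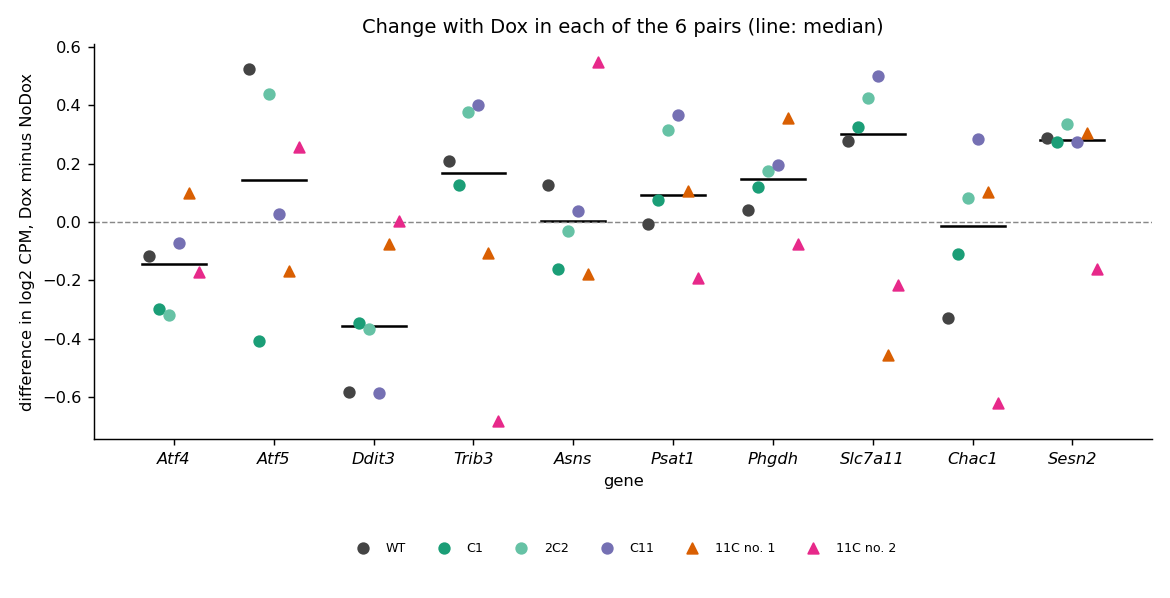
Difference in log2 CPM, Dox minus NoDox, for each gene in each of the 6 pairs (circles WT and XistDelA clones, triangles 11C, black lines the median of the pairs). Ddit3 was lower with Dox in 5 of 6 pairs and Sesn2 higher in 5 of 6.

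Atf4 encodes the transcription factor at the centre of the response. It was at 60.2 RPM in WT without Dox and at 56.9 RPM with Dox. In C1, 2C2 and C11 it was at 63.7, 65.9 and 66.3 RPM without Dox and at 52.6, 55.3 and 63.5 RPM with Dox. In 11C libraries 1 and 2 it was at 54.8 and 56.6 RPM without Dox and at 61.3 and 47.5 RPM with Dox. The clones were lower with Dox, their groups meeting without overlap (65.3 ± 1.36 and 57.1 ± 5.65 RPM, mean ± SD, n = 3 clones), whereas 11C library 1 was higher with Dox. Over all lines the states overlapped, also without 11C, since C11 with Dox lay above WT without Dox. The log2 change over all lines was -0.15 (95% interval -0.30 to 0.01, adjusted p = 0.388), lower in 5 of 6 pairs. In the 8 libraries Atf4 fell by 0.20 (adjusted p = 0.0190, lower in 4 of 4 pairs), and without 11C number 1 by 0.19 (adjusted p = 0.0275). Over the alternatives its adjusted p ranged from 0.0190 to 0.760.

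Ddit3 encodes CHOP, a factor linked to cell death in prolonged stress. It was at 5.14 RPM (4.36 to 6.07) in WT without Dox and at 3.49 RPM (2.86 to 4.26) with Dox. The clones C1, 2C2 and C11 gave 4.86, 4.40 and 5.90 RPM without Dox and 3.86, 3.55 and 3.93 RPM with Dox. In 11C libraries 1 and 2 it was at 8.07 and 4.76 RPM without Dox and at 7.998 and 4.51 RPM with Dox. In WT and the clones every Dox library lay below every NoDox library, while the 11C libraries numbered 1 were the highest of all in both states and the 11C pairs hardly differed. Over all lines the log2 change was -0.33 (-0.68 to 0.02, adjusted p = 0.380), lower in 5 of 6 pairs as log2 CPM and in 6 of 6 as RPM, the pair numbered 2 of 11C lying at 0.003 as log2 CPM. It fell by 0.48 in the 8 libraries (adjusted p = 0.00527, lower in 4 of 4 pairs), and by 0.39 without 11C number 1 (adjusted p = 0.0301) and without 11C number 2 (adjusted p = 0.0207). With a block of the 6 pairs Ddit3 was also called, at -0.33 (adjusted p = 0.0458). Over the alternatives its adjusted p ranged from 0.00527 to 0.672. The counts behind these levels were 90 to 288 per library.

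Trib3 encodes a pseudokinase that feeds back on ATF4 and CHOP. It was at 3.48 RPM in WT without Dox and at 4.14 RPM with Dox. In C1, 2C2 and C11 it was at 2.95, 2.22 and 2.99 RPM without Dox and at 3.27, 3.04 and 4.004 RPM with Dox. In 11C libraries 1 and 2 it was at 6.17 and 2.06 RPM without Dox and at 5.97 and 1.19 RPM with Dox. The values in WT and the clones were higher with Dox in each pair and those in 11C lower in each, with the difference between the 11C libraries exceeding both. Over all lines the log2 change was 0.12 (-0.58 to 0.82, adjusted p = 0.906), and in the 8 libraries 0.28 (0.03 to 0.53, adjusted p = 0.0943), within a range over the alternatives of 0.0943 to 0.980. Atf5, a factor related to ATF4 that acts in mitochondrial stress, was the gene with the fewest counts, from 0.953 RPM (0.603 to 1.51) to 2.55 RPM (1.96 to 3.32). It was higher with Dox in 4 of 6 pairs, with a log2 change of 0.10 (-0.44 to 0.64, adjusted p = 0.897), and counting error alone is wide at this depth. The value in the 8 libraries was 0.15 (-0.24 to 0.54, adjusted p = 0.579), within 0.541 to 0.998 over the alternatives.

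Asns encodes asparagine synthetase. It was at 209.8 RPM in WT without Dox and at 235 RPM with Dox. In C1, 2C2 and C11 it was at 204, 269.6 and 247 RPM without Dox and at 185, 276 and 256 RPM with Dox. In the 11C libraries it was at 295.6 and 417 RPM without Dox and at 273 and 577 RPM with Dox, in the order of their numbers. The highest levels were those of the 11C libraries numbered 2, and the states overlapped in each genotype with replicates. Asns was higher with Dox in 3 of 6 pairs as log2 CPM and in 4 of 6 as RPM, and its log2 change was 0.10 (-0.34 to 0.54, adjusted p = 0.872) over all lines. This value turned to -0.05 (-0.045 before rounding, adjusted p = 0.630) without 11C number 2 and to -0.005 (-0.11 to 0.10, adjusted p = 0.954) in the 8 libraries, within a range of 0.364 to 0.954 over the alternatives.

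Phgdh and Psat1 encode successive enzymes of serine synthesis. Psat1 was at 102 RPM in WT without Dox and at 104 RPM with Dox. In C1, 2C2 and C11 it was at 112, 75.9 and 91.6 RPM without Dox and at 120.0, 98.7 and 119 RPM with Dox. In the 11C libraries numbered 1 and 2 it was at 152 and 75.5 RPM without Dox and at 170.5 and 62.4 RPM with Dox. The clone groups overlapped, although each clone was higher with Dox, and the 11C libraries held both the highest and the lowest Dox level. The log2 change of Psat1 was 0.13 (-0.30 to 0.56, adjusted p = 0.820), higher in 4 of 6 pairs as log2 CPM and in 5 of 6 as RPM, WT being the pair that differs. In the 8 libraries it rose by 0.19 (0.05 to 0.32, adjusted p = 0.0417, higher in 3 of 4 pairs as log2 CPM and in 4 of 4 as RPM), and its adjusted p was 0.0417 to 0.952 over the alternatives. Phgdh ranged from 28.8 to 75.7 RPM over the libraries, both extremes being 11C libraries with Dox. Its 3 clone libraries with Dox, at 40.4 to 41.4 RPM, lay above those without, at 34.2 to 37.5 RPM. Its log2 change was 0.16 (-0.22 to 0.54, adjusted p = 0.742), higher in 5 of 6 pairs, and in the 8 libraries 0.13 (0.02 to 0.25, adjusted p = 0.0817). Its adjusted p ranged from 0.0544 to 0.891 over the alternatives.

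Slc7a11 encodes the cystine and glutamate exchanger xCT. It was at 2.48 RPM in WT without Dox and at 3.09 RPM with Dox. Levels in C1, 2C2 and C11 were 3.65, 2.35 and 3.30 RPM without Dox and 4.66, 3.33 and 4.73 RPM with Dox. In 11C libraries 1 and 2 it was at 8.58 and 2.17 RPM without Dox and at 6.50 and 1.76 RPM with Dox. Each clone was higher with Dox, although the clone groups overlapped (3.10 ± 0.671 and 4.24 ± 0.787 RPM, n = 3), and both 11C pairs were lower. The log2 change over all lines was 0.13 (-0.60 to 0.85, adjusted p = 0.902), higher in 4 of 6 pairs. In the 8 libraries Slc7a11 rose by 0.39 (0.15 to 0.64, adjusted p = 0.0219, higher in 4 of 4 pairs), within a range of adjusted p over the alternatives of 0.0219 to 0.983 (0.9825 before rounding).

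Chac1 encodes an enzyme that breaks down glutathione. It was at 1.74 RPM in WT without Dox and at 1.403 RPM with Dox. The clones gave 2.10 (C1), 1.22 (2C2) and 1.92 RPM (C11) without Dox and 1.96, 1.36 and 2.37 RPM with Dox. In 11C libraries 1 and 2 it was at 7.24 and 2.43 RPM without Dox and at 8.11 and 1.47 RPM with Dox. The states overlapped in every genotype with replicates, and the only libraries far from the others were the 11C libraries numbered 1. Its log2 change was -0.02 (-0.79 to 0.74, adjusted p = 0.987), with 3 pairs higher and 3 lower, and the interval leaves room for a change in either direction. This value was above 0 with library totals in place of TMM (0.01), without WT (0.03) and without 11C number 2 (0.02), and in the 8 libraries it was -0.01 (-0.36 to 0.34, adjusted p = 0.970). The adjusted p ranged from 0.638 to 0.998 over the alternatives.

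Sesn2 encodes sestrin 2, a brake on growth signalling when nutrients are short. It was at 34.9 RPM (32.7 to 37.2) in WT without Dox and at 43.7 RPM (41.3 to 46.2) with Dox. In C1, 2C2 and C11 it was at 30.9, 28.7 and 33.4 RPM without Dox and at 37.9, 37.9 and 40.6 RPM with Dox. In 11C libraries 1 and 2 it was at 36.7 and 26.6 RPM without Dox and at 47.4 and 22.4 RPM with Dox. In WT and the clones every Dox library lay above every NoDox library (clones 31.0 ± 2.36 and 38.8 ± 1.57 RPM, n = 3), and 11C library 1 was also higher with Dox, while library 2 was lower. Over all lines the log2 change was 0.24 (-0.04 to 0.51, adjusted p = 0.423), higher in 5 of 6 pairs. Sesn2 rose by 0.29 in the 8 libraries (adjusted p = 0.00157, higher in 4 of 4 pairs) and by 0.29 without 11C number 2 (adjusted p = 0.00290), whereas the value without 11C number 1 was 0.21 (adjusted p = 0.0563). With a block of the 6 pairs Sesn2 was also called, at 0.23 (adjusted p = 0.0311). Over the alternatives its adjusted p ranged from 0.00157 to 0.734.

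By genotype, with the spread estimated over all 12 libraries, none of the 10 genes was called in XistDelA, where 3 of 16254 genes were (0.0185%), or in 11C, where 2 were (0.0123%), and none was called in the difference of 11C minus XistDelA, where 0 genes were (0%). At an unadjusted p under 0.05, edgeR gave 0 of the 10 genes in each of these tests, and 1219, 597 and 353 of all genes. DESeq2 called 0 of the 10 in each, with 37, 39 and 1 of all genes. With a block of the 6 pairs, Sesn2 alone was called in XistDelA (adjusted p = 0.04845), beside 10.8% of all genes. That block called none of the 10 in 11C or in the difference, beside 3.32% and 0.732% of all genes. In the XistDelA libraries alone, 4410 of 14866 genes were called (29.7%) and 6 of the 10: Ddit3, Atf4, Psat1, Slc7a11, Phgdh and Sesn2. The 11C libraries alone gave 0 calls among 15140 genes by edgeR and 173 genes at an unadjusted p under 0.05, none of the 10 among them. In the fit of the 12 libraries Slc7a11 had the largest difference between the genotypes, at -0.81 (-2.65 to 1.03, adjusted p = 1.00). Its log2 change was 0.43 (0.426 before rounding) in XistDelA and -0.38 in 11C. Leaving out 11C number 1 put the differences of Trib3 (-1.04) and Chac1 (-0.75) ahead of that of Slc7a11 (-0.66). Without 11C number 1, where 1 library in each state stands for that line and is assumed to vary like the others, 5 of the 10 were called in XistDelA beside 26.9% of all genes, and Asns alone in 11C (0.54, adjusted p = 5.97e-05) beside 8.13%. Psat1, Sesn2 and Asns were then called in the difference, beside 7.13% of all genes. Without 11C number 2, 5 were called in XistDelA beside 27.3% of all genes and Phgdh alone in 11C (0.34, adjusted p = 0.0223) beside 15.1%. Slc7a11 alone was called in that difference (-0.90, adjusted p = 0.0119), beside 9.91%. The calls in 11C and in the difference thus changed with the library left out. Without C1, 2C2 or C11, 1 gene was called in XistDelA, and none of the 10. Xist, the check of the Dox labels, also missed the threshold in these fits (adjusted p = 0.0663, 0.104 and 0.143, in that order).

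Read pairs assigned to a parental genome by sequence variants were 44.6% to 47.1% of the counts. Xist counts that could be assigned fell to the same parent for 98.2% to 99.9%, and that parent was read as 129S, which carries the TetOn promoter. The 129S share of Atf4 was 43.8% to 49.6% over the 12 libraries, that of Psat1 40.3% to 46.5%, that of Sesn2 43.9% to 52.4% and that of Phgdh 41.9% to 53.0%. For Asns it was 46.4% (45.1% to 47.7%, Wilson) and 48.3% (47.2% to 49.3%) in the 11C libraries numbered 2 without and with Dox, where its level was highest, and 39.4% to 43.6% in the other 10 libraries. For Trib3, with 23 to 159 allelic counts, it ranged from 26.15% to 47.8%, with a median of 37.8%. Ddit3, Slc7a11 and Atf5 had at most 125 allelic counts in a library. Their shares were 29.6% to 71.4%, 31.25% to 71.9% and 27.3% to 75.0%, in that order. For Chac1, with 6 to 97 allelic counts, it ranged from 33.3% to 71.4%. The intervals at that depth span most of this range. No test was run on these shares.

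Beside these genes, 45 further targets of ATF4 in 4 lists were read from the same fits, 44 of which were tested. In the test over all lines 0 were called in either direction by edgeR, with 6 at an unadjusted p under 0.05 (14.5% of all genes), and DESeq2 called 1 higher and 1 lower (4.50% of all genes). In the 8 libraries 17 were higher and 6 lower of 43, in a fit that called 25.7% of all genes, and no test compared the lists with each other or with all genes. Among the 12 genes of amino acid synthesis and one-carbon metabolism the median log2 change was 0.21 over all lines, with 0 called, and 0.23 in the 8 libraries, with 6 higher and 0 lower. It was 6 and 0 without 11C number 1 and 7 and 0 without number 2, each in a fit that called 18.4% of all genes. The smallest p over all lines were those of Cbs (0.33, adjusted p = 0.275), Mthfd1l (0.17, adjusted p = 0.318) and Pck2 (0.46, adjusted p = 0.414), and in the 8 libraries they rose by 0.40, 0.16 and 0.60. Over the alternatives their adjusted p ranged from 0.00585 to 0.593, from 0.0206 to 0.657 and from 0.00109 to 0.716. Of the 8 amino acid transporters, with a median of 0.02, 3 were higher and 4 lower in the 8 libraries. Slc7a3 was at -0.48 (adjusted p = 0.222, 0.00134 to 0.509 over the alternatives) and Slc7a1 at 0.26 (adjusted p = 0.244, 0.00616 to 0.541), each alike in 6 of 6 pairs, and the 8 libraries called both, at -0.40 and 0.23 (0.225 before rounding). The 13 genes of tRNA charging and export had a median of 0.07, with 3 higher and 1 lower in the 8 libraries, and Cars was at 0.32 (adjusted p = 0.380, 2.06e-04 to 0.712) and rose there by 0.42. The 11 transcription factors and effectors tested had a median of 0.14, with 5 higher and 1 lower of 10 in the 8 libraries, and with Jdp2, a repressor of the AP-1 family, at 0.57 (adjusted p = 0.0848, higher in 6 of 6 pairs) and Atf3, itself induced by stress, at -0.59 (adjusted p = 0.163, lower in 6 of 6). DESeq2 called both (adjusted p = 0.00569 and 0.0473), and their adjusted p ranged from 5.46e-05 to 0.286 for Jdp2 and from 2.00e-04 to 0.431 for Atf3 over the alternatives. The 8 libraries called both, at 0.68 and -0.60. Upstream, 0 of 7 kinases, phosphatase subunits and relay proteins of eIF2 were called by edgeR or DESeq2, with 1 at an unadjusted p under 0.05, Oma1, a mitochondrial protease (0.27, adjusted p = 0.172, 8.06e-04 to 0.494 over the alternatives). Of these, 1 was higher in the 8 libraries, Oma1 (0.375), and 1 lower, the kinase gene Eif2ak2 (-0.18, adjusted p = 0.0207, 0.0202 to 0.870 over the alternatives). Of 8 eIF2 and eIF2B subunits 0 were called by edgeR, with 2 at an unadjusted p under 0.05, and 1 lower by DESeq2, Eif2b5 (-0.36, adjusted p = 0.0773 by edgeR and 0.00457 by DESeq2). Its adjusted p ranged from 1.21e-04 to 0.290 over the alternatives, and in the 8 libraries 3 of these subunits were lower, Eif2b5 by 0.46.

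Genes of the ER and of other stress responses had log2 changes mostly below 0. Their counts below are to be read beside the 0.923% of all genes called over all lines by edgeR, the 4.50% called by DESeq2, the 25.7% called in the 8 libraries and the 14.5% at an unadjusted p under 0.05 over all lines. All 16 targets of ATF6 and XBP1 in the ER list had a log2 change below 0, with a median of -0.27 against 0.01 over all genes tested, and 1 was called over all lines, against 5 by DESeq2, all lower, and 12 lower and 0 higher in the 8 libraries. The gene called was Hsp90b1, an ER chaperone, which fell by 0.43 (adjusted p = 0.0229, lower in 6 of 6 pairs). Its call was lost without WT (adjusted p = 0.113), C1 (0.132), 2C2 (0.132) or C11 (0.0860), and its adjusted p went down to 1.59e-06 over the alternatives, with DESeq2. Hspa5, the chaperone BiP, was at -0.55 (adjusted p = 0.0600, lower in 6 of 6, 4.01e-05 to 0.248 over the alternatives) and fell by 0.58 in the 8 libraries. All 7 NRF2 targets were below 0, with a median of -0.29, and 1 was called, against 2 by DESeq2 and 6 in the 8 libraries. Hmox1, which degrades heme, fell by 0.64 (adjusted p = 0.0106, lower in 6 of 6 pairs), with adjusted p of 0.0755 without WT, 0.0641 without C1 and 0.0630 without 2C2 and a lowest value of 1.21e-09 over the alternatives. All 6 cytosolic heat shock genes were below 0 as well, with a median of -0.37, and 1 was called, against 2 of 4 by DESeq2 and 2 of 5 in the 8 libraries. It was Hsp90aa1, which fell by 0.40 (adjusted p = 0.0464, lower in 6 of 6 pairs). That call was lost without WT (0.210), C1 (0.210), 2C2 (0.212) or C11 (0.0860), with library totals (0.0579) and with genotype in place of line (0.0616), and its lowest adjusted p was 1.695e-05, with DESeq2. Of 10 mitochondrial chaperones and proteases, with a median of -0.07, 0 were called by edgeR or DESeq2, with 3 at an unadjusted p under 0.05, and 3 were lower in the 8 libraries, among them Hspd1, a folding chaperone of the mitochondrial matrix (-0.33, adjusted p = 5.06e-04, up to 0.510 over the alternatives). Of 9 immediate early genes, 0 were called by edgeR, with 6 at an unadjusted p under 0.05, and DESeq2 called 1 higher and 2 lower. Their median was -0.39, and in the 8 libraries 1 was higher and 2 lower.

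**Figure D5:**
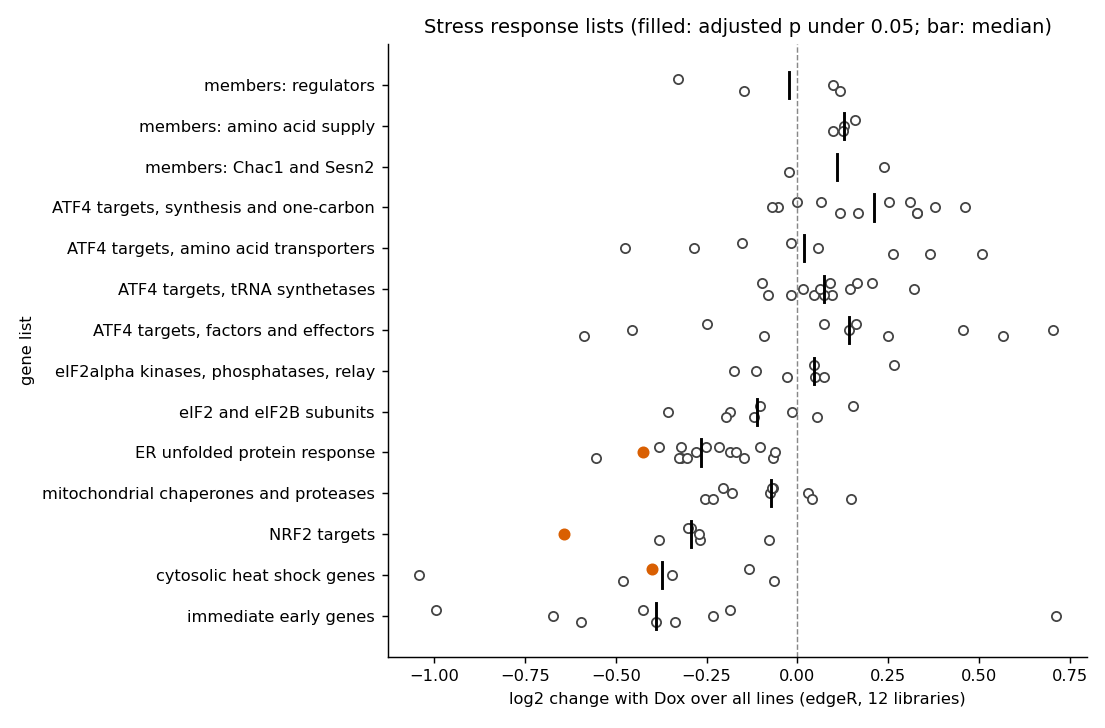
Log2 change with Dox over all lines (x axis, edgeR, 12 libraries) of each gene of the stress response lists (y axis), with filled points for an adjusted p under 0.05 and bars at the median of a list. The 3 filled points are Hmox1 (-0.64), Hsp90b1 (-0.43) and Hsp90aa1 (-0.40), and all 16 genes of the ER list lie below 0.

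Cell type markers were read from the same fits. Of 9 stem cell markers tested, 0 were called over all lines by edgeR, with 4 at an unadjusted p under 0.05 (14.5% of all genes), and DESeq2 called 1 higher and 1 lower (4.50%). In the 8 libraries, where 25.7% of all genes were called, 1 was higher, Zfp42 (0.41, adjusted p = 5.22e-05, up to 0.405 over the alternatives), and 5 were lower, among them Tdgf1 (-0.44, adjusted p = 1.73e-04, 1.05e-04 to 0.241 over the alternatives). Of 9 fibroblast markers tested, 0 were called by edgeR in either fit or by DESeq2, which gave 6 of them an adjusted p. At an unadjusted p under 0.05 there were 0 over all lines and 1 in the 8 libraries, where 38.1% of all genes were. A block of the 6 pairs called 1 of these markers lower, beside 15.9% of all genes. What part the stem cell markers have in the changes of the stress response genes was not tested.

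After the mean of each line was subtracted, the mean log2 CPM of the 10 genes was 0.41 above its line in both 11C libraries numbered 1, and -0.35 and -0.48 in those numbered 2, without and with Dox. In the other 8 libraries it lay within -0.07 and 0.07. The 10 other genes whose line-centred level was most like this mean over the 12 libraries were Cipc, Taok2, Slc28a1, Zdhhc16, 2810408A11Rik, Trappc6a, Hagh, Cox6b1, Car4 and Camkv, with Pearson r of 0.995 for Cipc and 0.987 for Camkv. These points share the 11C line, whose 4 libraries set the pattern, and over the 8 other libraries r was 0.910 for Cipc and 0.517 for Camkv. Among the 45 pairs of the 10 genes themselves, r over the 12 libraries was positive in 30, with a median of 0.453. Over the 8 libraries without 11C it was positive in 25, with a median of 0.117. After centring, the 2 libraries of WT and of each clone mirror each other, so these 8 values rest on 4 pair differences and r restates in part their signs.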

How the data were processed

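Chromatin-associated RNA of the 12 libraries was aligned to mm10 by the authors, whose processing notes name Bowtie2 2.3.2 and STAR 2.4.2a. The counts were deposited as raw read pairs per gene, made by the authors with featureCounts 1.5.2, stranded, over gene spans with introns, for all pairs and for the pairs of each parental genome. Pairs over 2 genes on the same strand were not counted. Here the counts of all pairs were tested with edgeR 4.0.16 in R 4.3.3 (TMM factors, filterByExpr with a minimum count of 10, quasi-likelihood test, Benjamini-Hochberg over all genes tested, threshold 0.05). The terms were cell line (WT, C1, 2C2, C11, 11C) and Dox, and a second fit gave each genotype its own Dox effect. WT has 1 pair and was not tested alone. Pair differences used log2 CPM with a prior count of 2. Each XistDelA clone pairs its own libraries through the line term. The 11C libraries share a single line term, so the difference between their numbers stays in the spread of these fits.

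Alternatives were DESeq2 size factors in edgeR, library totals, TMM from autosomal genes, DESeq2 1.42.0, no filter, a block of the 6 pairs, genotype in place of line, each pair left out in turn, and each genotype alone. The fit of the 8 WT and XistDelA libraries was added after the 11C libraries had been seen to stand apart. The code was tested on simulated counts. All 10 genes are named, and of each further list up to 3 genes with the smallest adjusted p over all lines, together with the 10 genes most like the mean of the 10 over the libraries. The genes and lists were chosen with earlier results of these data known.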

Additional observations from a re-analysis of the deposited data

How the results depend on the processing

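The number of genes called over all lines, 150, was 91 with library totals, 618 with DESeq2, 78 with no block (genotype in place of line), 3 to 2959 with a pair left out and 4031 in the 8 WT and XistDelA libraries. Of the 10 genes, 0 were called over all lines, 0 to 2 with a pair left out and 5 in the 8 libraries. In XistDelA 0 were called, 0 to 5 with a pair left out (5 beside 26.9% or 27.3% of all genes), 6 in its libraries alone (beside 29.7%) and 5 in the 8 libraries (beside 27.7%). In 11C 0 were called, also with WT or a clone left out, beside 0.0123% to 0.0127% of all genes. In the difference between the genotypes 0 were called in the same fits, beside 0% of all genes. With an 11C pair left out, a single library in each state stands for that line. Those calls, given above with their shares, changed with the library left out. The log2 change of Asns, 0.098, was -0.005 in the 8 libraries and -0.045 to 0.147 with a pair left out. That of Chac1, -0.022, was 0.012 with library totals and -0.124 to 0.033 with a pair left out. Of the 40 genes with the smallest adjusted p of their lists, Xist included, 0 changed sign under any alternative. Genes further down the lists were not counted. A replicate block of the 6 pairs, which adds the 11C numbers to the clones, gave 2587 genes (15.9%) and 2 of the 10 over all lines (Ddit3, adjusted p = 0.0458, and Sesn2, 0.0311) and 1 in XistDelA (Sesn2), beside 10.8% of all genes. It changed no other call of the 10. Deviations from the group means correlated at 0.595 (C1), 0.368 (2C2) and 0.537 (C11) between the states of a clone. Between 11C libraries of the same number they correlated at 0.691. With 2 numbers, the -0.691 between 11C libraries of different number follows from this by construction. The sign and size of the 0.691 itself do not. The labels do not say that these numbers mark a shared culture, and the cause of the difference between the 11C numbers was not tested.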

Other observations

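Dox was never given without induction of Xist, and no library holds cells without the TetOn promoter that received Dox, so these data cannot assign a change to either. The 11C libraries numbered 1 and 2 differ in both states, and what they do not share is not in the labels. A value that missed the threshold does not show that a gene was unchanged: the interval of Slc7a11 over all lines runs from -0.60 to 0.85. Protein, translation and phosphorylation of eIF2 were not analysed here. The counts describe transcripts at the chromatin, introns included, and not mature mRNA.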
